A study of Mus musculus with 12 samples.

Results

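The immediate early response genes are a set of 38 genes whose transcription is switched on within minutes of a stimulus. The set was listed by gene symbol, and all 38 were among the 36047 genes measured in eosinophils of the mouse proximal small intestine (SI). RNA was sequenced from 3 eosinophil subsets sorted from the lamina propria of wild type C57BL/6J mice labelled as female, named for 2 surface proteins, CD22, a lectin, and α4β7, an integrin that guides leukocytes to the gut. There were 4 libraries each of α4β7+, α4β7− CD22−, and CD22+ cells, 12 in all, and each library pooled the cells of 2 mice. The labels give no age, and the mice of the study were young adults. No transgene and no treatment is given, so the sort markers alone define the groups, and every sorted cell was live, CD45+ CD11b+ SiglecF+, and negative for MHCII and Ly6G. The study treated the 3 subsets, in this order, as only roughly younger, intermediate, and older eosinophils, and the comparisons ask how their RNA differs along that order.

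Immediate early genes are transcribed from promoters that are already accessible, without new protein synthesis, when mitogen-activated protein kinases, calcium, or NF-κB signals reach factors such as SRF, CREB, and the ternary complex factors. Their products fall into transcription factors (the AP-1, EGR, NR4A, and KLF families, Myc, and the small Maf proteins) and feedback inhibitors (the DUSP phosphatases, the ZFP36 RNA-binding proteins, and the RGS proteins). Most of their mRNAs are short-lived, and the same genes are known to be induced while tissues are digested to single cells.

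The values are normalized counts, that is, estimated read counts scaled by the authors to a common library size, and fold changes are on the log2(normalized count + 1) scale with limma's standard error (SE). A gene was called when its Benjamini-Hochberg adjusted p was at most 0.05 and its fold change at least 1.5, and 15249 genes with an average above 10 normalized counts were tested, the 38 members among them. The normalized counts of a library summed to between 14286474 and 16915755, with 19760 to 21960 genes above 0. The unscaled depth of these libraries was not used here, so no counting interval is given. Siglecf, which encodes the eosinophil surface lectin used in the sort, had means of 7534, 7827, and 7339.8 in the subsets, in the order just given. The sorting markers followed the labels, since Itgb7, the β7 integrin chain, had means of 2526, 220.4, and 156, and Cd22 had means of 1115, 4462, and 13334.

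A total of 16 of the 38 members were called in at least 1 of the 3 comparisons. Against the α4β7+ subset, 12 members were lower and 2 were higher in the α4β7− CD22− subset, whereas 4.35% of all tested genes were called lower and 3.7% higher. The CD22+ subset had 14 members lower and 2 higher than the α4β7+ subset, beside 6.39% and 5.6% of all tested genes. Between the CD22+ and α4β7− CD22− subsets, 3 members were lower and none was higher, beside 0.393% and 0.21% of all tested genes. These comparisons share libraries, and 14 members were called in both comparisons with α4β7+ cells. The median log2 fold change of the 38 members was −0.15, −0.15, and −0.16 in the 3 comparisons, beside 0.0030, 0.014, and −0.0014 for all tested genes. The called members were AP-1, IER, DUSP, and ZFP36 genes, Myc, Egr2, and Rgs1, and no NR4A, KLF, or growth arrest gene was called. Fos and Egr1, the members most often used as readouts of the response, were not called in any comparison.

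**Figure D1:**
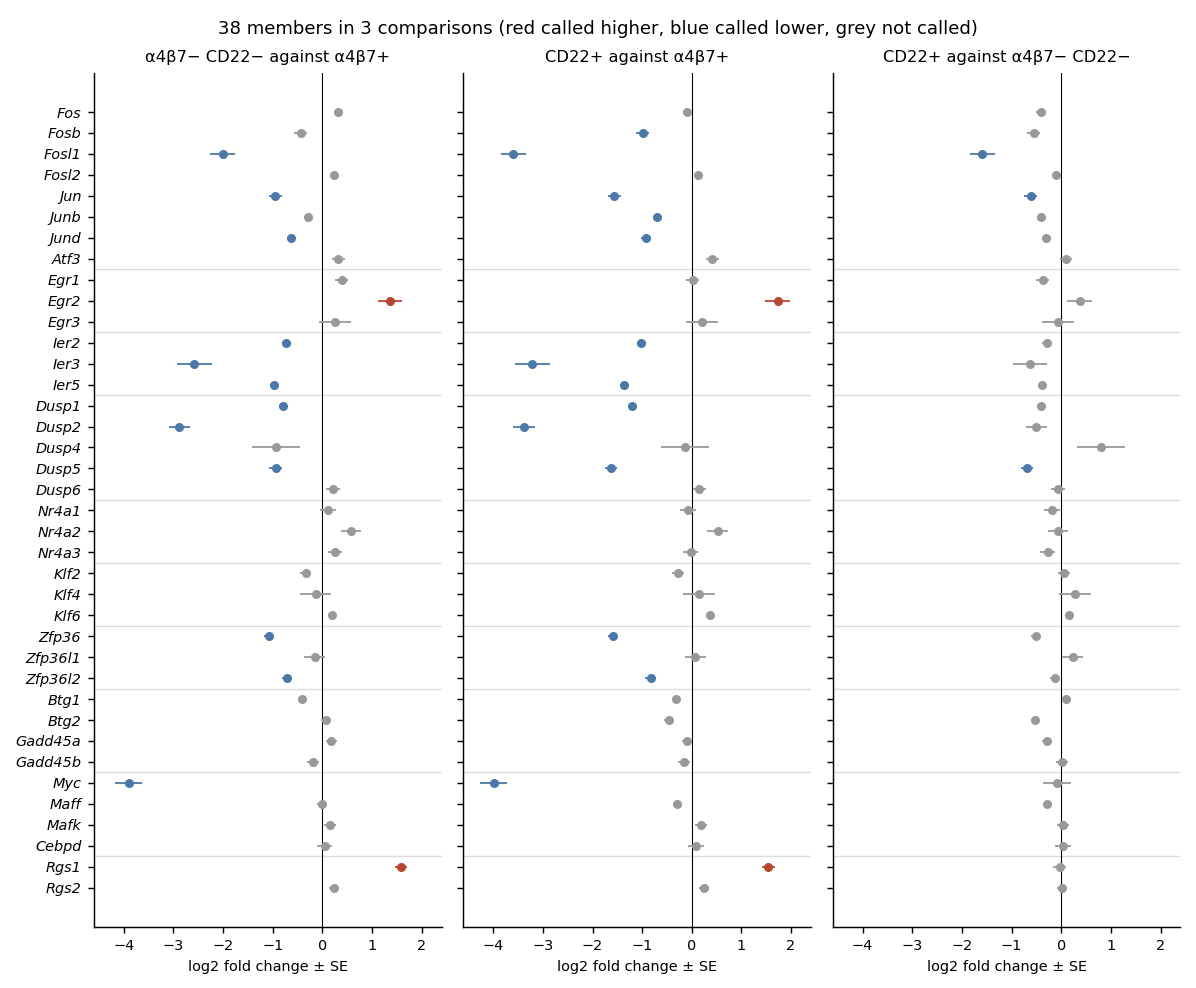
Log2 fold change ± SE of each of the 38 members in the 3 comparisons, in role groups separated by grey lines. Members called lower are blue, those called higher are red, and the others are grey, and the largest decreases against α4β7+ cells are those of Myc, Fosl1, Dusp2, and Ier3.

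The promoters of 4 called members are shown because they hold letters that match the sites of SRF and CREB, through which kinases act on many immediate early genes. A match is a description of the sequence and says nothing of binding in these cells. Windows of 250 bases before to 50 bases after the RefSeq start sites (GRCm38.p6) were found for 29 of the 38 members, and they were searched on both strands. A CArG box, the SRF site, was present in windows of 3 of these members, Dusp5, Egr2, and Zfp36, and for 1.81% of all 27025 gene symbols in the table. Each of these 3 members was called, Dusp5 and Zfp36 lower and Egr2 higher against α4β7+ cells, and 16 of all 38 members were called. A link between boxes and calls was not tested. Egr2 has several listed start sites, and the window of that at 67535499 held no box. Sites outside these windows, and those of members without an entry, were not searched. The cAMP response element TGACGTCA was found for Btg2, Dusp1, and Maff, and for 2.03% of all symbols. Dusp1 was called, and Btg2 and Maff were not. The letters TGANTCA, an AP-1 site, were found for Zfp36l1 and for 8.97% of all symbols, and GCGNGGGCG, an EGR site, for 13 members and for 6.27% of all symbols. The stretches below run 5′ to 3′ towards the start site, leave out annotated untranslated sequence except for 30 bases of Zfp36, and have the CArG boxes or the cAMP response element in capitals, none of which overlap.
Dusp5 (chr19:53528895-53529108, plus strand): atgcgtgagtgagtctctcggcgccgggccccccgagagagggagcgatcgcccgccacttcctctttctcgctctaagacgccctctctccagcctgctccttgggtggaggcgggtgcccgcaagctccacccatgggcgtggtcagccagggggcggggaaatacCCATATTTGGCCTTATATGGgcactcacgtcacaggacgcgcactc
Egr2 (chr10:67537619-67537868, plus strand): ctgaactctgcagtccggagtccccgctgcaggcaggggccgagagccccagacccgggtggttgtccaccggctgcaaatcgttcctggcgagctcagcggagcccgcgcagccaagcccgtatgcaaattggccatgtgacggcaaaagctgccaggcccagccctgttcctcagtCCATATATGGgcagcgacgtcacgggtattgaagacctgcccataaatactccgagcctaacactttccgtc
Zfp36 (chr7:28379267-28379296, minus strand): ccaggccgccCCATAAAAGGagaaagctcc
Dusp1 (chr17:26508520-26508722, minus strand): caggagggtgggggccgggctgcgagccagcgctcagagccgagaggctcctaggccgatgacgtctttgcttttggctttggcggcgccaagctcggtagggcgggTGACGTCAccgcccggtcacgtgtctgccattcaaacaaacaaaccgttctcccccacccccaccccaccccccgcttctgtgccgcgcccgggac
The Dusp5 boxes begin 82 and 72 bases before the start, that of Egr2 72 bases before it, and that of Zfp36 58 bases before it, and the Dusp1 element begins 143 bases before it. Fosl1, Egr1, Egr3, Ier2, Dusp4, Zfp36l2, Myc, Cebpd, and Rgs1 had no entry in the promoter table used.

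Of the 8 AP-1 and ATF members, 3 were lower in the α4β7− CD22− than in the α4β7+ subset and 5 were lower in the CD22+ subset, and none was higher. Fosl1, which encodes the Fos-related subunit FRA-1 (chr19:5447547-5455946, plus strand), had 199.97, 163, 275, and 147 normalized counts in the α4β7+ libraries, 41.1, 42.7, 57.955, and 46.8 in the α4β7− CD22− libraries, and 12.019, 18.3, 16.5, and 13.3 in the CD22+ libraries. The 3 subsets did not overlap, and the log2 fold change against α4β7+ cells was −2.01 ± 0.25 (adjusted p = 7.81e-05) in α4β7− CD22− and −3.60 ± 0.25 (adjusted p = 1.08e-07) in CD22+ cells, a 12.1-fold fall in the latter. Fosl1 was also lower in CD22+ than in α4β7− CD22− cells, at −1.59 ± 0.25 (adjusted p = 0.00601). Jun, the core partner of the Fos proteins (chr4:95049034-95052222, minus strand), had 5462, 5097, 6136, and 5155 normalized counts in the α4β7+ libraries, 3029, 3215, 3146, and 2073 in the α4β7− CD22− libraries, and 1988, 2103, 1712, and 1606 in the CD22+ libraries. Every α4β7+ library lay above every other library, and the log2 fold changes against them were −0.95 ± 0.13 (adjusted p = 0.000171) in α4β7− CD22− and −1.56 ± 0.13 (adjusted p = 6.7e-07) in CD22+ cells. Jund, a Jun subunit that resting cells also express, had 2287, 2390.3, 2332, and 2369.9 normalized counts in the α4β7+ libraries, 1566, 1645, 1642, and 1264 in the α4β7− CD22− libraries, and 1305, 1359, 1206, and 1080.1 in the CD22+ libraries. It was lower than in α4β7+ cells at −0.62 ± 0.10 (adjusted p = 0.000404) and −0.93 ± 0.10 (adjusted p = 5.08e-06) on the log2 scale, without overlap. Without α4β7− CD22− replicate 4, the first of these was −0.54 and no longer reached the fold threshold.

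Junb and Fosb reached the fold threshold only in CD22+ cells. Junb, which has the highest level per kilobase of the members in α4β7+ cells, had 45916, 42086, 40769, and 35721 normalized counts in the α4β7+ libraries, 35564, 34212, 32904, and 32004 in the α4β7− CD22− libraries, and 27605, 24913, 22911, and 26043 in the CD22+ libraries. The 3 subsets were ordered without overlap, with a difference of −0.69 ± 0.08 (adjusted p = 1.56e-05) for CD22+ against α4β7+ cells and −0.28 ± 0.08 (adjusted p = 0.0266) for α4β7− CD22− against α4β7+ cells. Under quantile normalization the CD22+ difference was −0.43 and was not called. Fosb, a Fos family subunit that pairs with Jun, had 4491, 4456, 4851, and 4901 normalized counts in the α4β7+ libraries, 2909, 2888, 4118, and 4071 in the α4β7− CD22− libraries, and 2696, 2150.04, 1947, and 2688 in the CD22+ libraries. The CD22+ libraries lay below all others, and the log2 fold change against the α4β7+ subset was −0.99 ± 0.13 (adjusted p = 6.82e-05). For α4β7− CD22− against α4β7+ cells it was −0.44 ± 0.13 (adjusted p = 0.0379), without overlap and below 1.5-fold. For CD22+ against α4β7− CD22− cells it was −0.55 ± 0.13 (adjusted p = 0.0698). In the α4β7− CD22− subset replicates 1 and 2 lay well below replicates 3 and 4.

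Fos, Fosl2, and Atf3 were not called in any comparison. Fos, the founding immediate early gene (chr12:85473890-85477273, plus strand), had 34969, 34957, 30049, and 27492 normalized counts in the α4β7+ libraries, 38054, 37267, 41873, and 41445 in the α4β7− CD22− libraries, and 33557, 25963, 28511, and 31728 in the CD22+ libraries. The α4β7− CD22− libraries were the highest, with no overlap with either neighbour, but the differences were 0.32 ± 0.09 (adjusted p = 0.0323) against α4β7+ and −0.41 ± 0.09 (adjusted p = 0.0541) for CD22+ against α4β7− CD22− cells, under the fold threshold. For CD22+ against α4β7+ cells the 95% interval of the Fos difference was −0.29 to 0.11. Fosl2, which encodes FRA-2, had means of 6379 ± 587, 7468 ± 198, and 6997 ± 830.5 in the 3 subsets in order, and its differences had adjusted p-values of 0.092, 0.334, and 0.812. Atf3, a factor induced by many stresses, had means of 469 ± 77.4, 578 ± 21.9, and 622 ± 84.006, and its difference between CD22+ and α4β7+ cells was 0.41 ± 0.13 (adjusted p = 0.0332), below 1.5-fold.

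**Figure D2:**
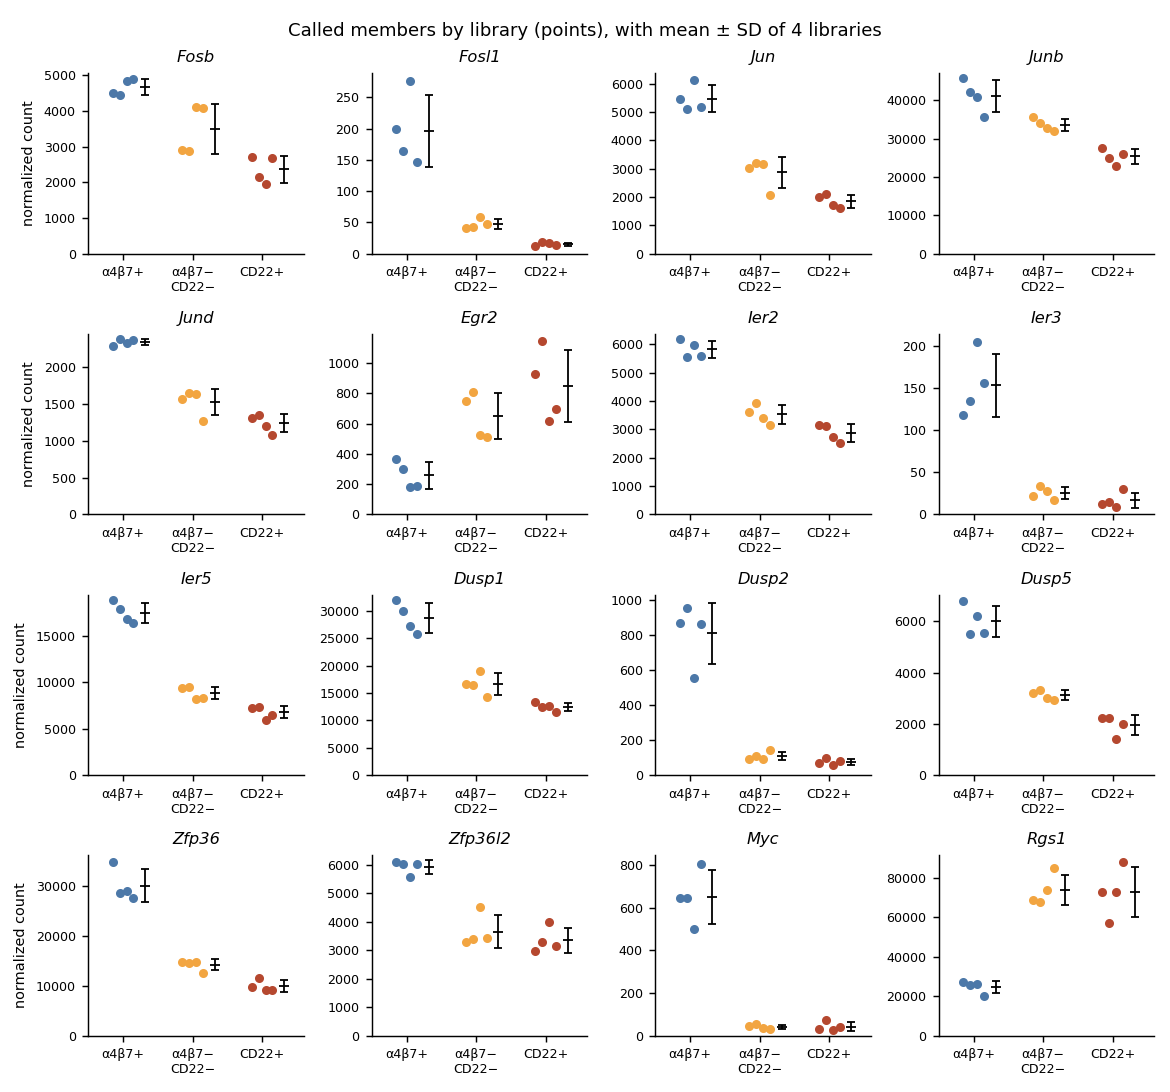
Normalized counts of the 16 called members in each of the 12 libraries (points, 4 per subset), with the mean ± SD of the 4 libraries beside them and axes that start at 0. Egr2 and Rgs1 are higher and the other 14 are lower in the CD22+ than in the α4β7+ libraries, without overlap.

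Of the 3 EGR genes, which encode zinc finger factors that bind GC-rich sites, only Egr2 was called. Egr2 (chr10:67535475-67542188, plus strand), known for its role in restraining lymphocyte activation, had 363, 303, 179.7, and 188 normalized counts in the α4β7+ libraries, 749, 811, 524, and 512 in the α4β7− CD22− libraries, and 925, 1143, 616, and 697 in the CD22+ libraries. Every α4β7+ library lay below every library of the other subsets, and Egr2 was higher by 1.36 ± 0.25 on the log2 scale (adjusted p = 0.00165) in α4β7− CD22− and by 1.73 ± 0.25 on the log2 scale (adjusted p = 0.000127) in CD22+ cells, 2.57-fold and 3.32-fold. Within each subset, replicates 1 and 2 were higher than replicates 3 and 4. Egr1, the most induced EGR gene in most cells, was far more abundant, with means of 30134 ± 3543, 39511 ± 5112, and 30755 ± 5791. Its differences of 0.39 ± 0.13 (adjusted p = 0.0599) for α4β7− CD22− against α4β7+ cells and −0.37 ± 0.13 (adjusted p = 0.289) for CD22+ against α4β7− CD22− cells were not called, and the libraries overlapped. Egr3, which shares many targets with Egr2, had means of 157 ± 42.1, 185 ± 32.7, and 194 ± 99.6, with an interval of −0.49 to 0.89 for CD22+ against α4β7+ cells that does not exclude a 1.5-fold increase.

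All 3 IER genes were lower in α4β7− CD22− and in CD22+ than in α4β7+ cells. Ier5, whose product acts with the phosphatase PP2A (chr1:155096361-155099636, minus strand), had 18778, 17857, 16785, and 16311 normalized counts in the α4β7+ libraries, 9321, 9484, 8177, and 8340.2 in the α4β7− CD22− libraries, and 7238, 7303, 5963, and 6509.6 in the CD22+ libraries. The subsets were ordered without overlap, with log2 fold changes of −0.98 ± 0.08 (adjusted p = 1.25e-06) in α4β7− CD22− and −1.37 ± 0.08 (adjusted p = 1.56e-08) in CD22+ cells, 2.59-fold in the latter. Ier2, a nuclear protein of the early growth factor response, had 6190.3, 5555, 5975, and 5609 normalized counts in the α4β7+ libraries, 3625, 3937, 3419.9, and 3154 in the α4β7− CD22− libraries, and 3173, 3127, 2729, and 2519 in the CD22+ libraries. On the log2 scale it differed by −0.73 ± 0.09 (adjusted p = 5.51e-05) and −1.02 ± 0.09 (adjusted p = 9.04e-07), again without overlap with α4β7+ cells. Ier3, a stress-inducible regulator of cell survival and a target of NF-κB, had 118, 135, 205, and 156 normalized counts in the α4β7+ libraries, 21.3, 33.7, 27.2, and 17.6 in the α4β7− CD22− libraries, and 12.8, 15.2, 9.24, and 30.020 in the CD22+ libraries. These low values differed by −2.58 ± 0.35 (adjusted p = 0.000141) and −3.21 ± 0.35 (adjusted p = 8.78e-06) on the log2 scale, 9.27-fold in CD22+ cells. The CD22+ libraries of Ier3 spread more than 3-fold, and the difference from α4β7− CD22− cells was −0.63 ± 0.35 (adjusted p = 0.628).

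Of the 5 dual-specificity phosphatases, which remove phosphate from mitogen-activated protein kinases, 3 were lower in α4β7− CD22− and in CD22+ than in α4β7+ cells. The other 2 were not called. Dusp1, a nuclear phosphatase that acts mainly on p38 and JNK, had 32014, 30012, 27317, and 25839 normalized counts in the α4β7+ libraries, 16636, 16433, 19131, and 14371 in the α4β7− CD22− libraries, and 13390.3, 12438, 12683, and 11553 in the CD22+ libraries. Its 3 subsets were ordered without overlap, with log2 fold changes of −0.79 ± 0.09 (adjusted p = 2.67e-05) in the α4β7− CD22− and −1.20 ± 0.09 (adjusted p = 1.85e-07) in the CD22+ subset. Dusp5, a nuclear phosphatase of ERK and the member with adjoining CArG boxes, had 6775, 5500.3, 6189, and 5526 normalized counts in the α4β7+ libraries, 3216, 3337, 2996, and 2917 in the α4β7− CD22− libraries, and 2239.7, 2221, 1405, and 1986 in the CD22+ libraries. The subsets did not overlap at any step, with differences of −0.94 ± 0.13 (adjusted p = 0.00014) for α4β7− CD22− and −1.63 ± 0.13 (adjusted p = 3.02e-07) for CD22+ against α4β7+ cells. Dusp2 (chr2:127336159-127338376, plus strand), a phosphatase of activated leukocytes, had the largest change of the family, with 865, 952, 551, and 860.1 normalized counts in the α4β7+ libraries, 92.962, 110.1, 88.7, and 141 in the α4β7− CD22− libraries, and 70.993, 96.044, 55.7, and 82.8 in the CD22+ libraries. Dusp2 was 7.37-fold lower in α4β7− CD22− cells, a log2 fold change of −2.88 ± 0.21 (adjusted p = 6.26e-07), and 10.4-fold lower in CD22+ cells, −3.38 ± 0.21 (adjusted p = 3.54e-08). By contrast Dusp6, the cytoplasmic phosphatase of ERK, had means of 3084 ± 486, 3562 ± 392, and 3428 ± 587 and intervals of −0.07 to 0.50 and −0.14 to 0.44 against α4β7+ cells, which exclude a 1.5-fold change. Dusp4 ranged from 6.94 to 58.007 over the 12 libraries, and its interval for CD22+ against α4β7+ cells, −1.17 to 0.90, excludes a 1.5-fold change in neither direction.

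None of the 3 NR4A genes was called. These orphan nuclear receptors are induced by antigen receptor and calcium signals and have activity that depends on their level. Nr4a1 had means of 4556 ± 901, 4876 ± 489, and 4339 ± 945 in the 3 subsets in order and an interval of −0.42 to 0.26 for CD22+ against α4β7+ cells. Nr4a3 had means of 1583 ± 260.3, 1867 ± 148, and 1564 ± 327 and an interval of −0.34 to 0.29, and both intervals exclude a 1.5-fold change in that comparison. Nr4a2, the lowest of the family per kilobase, had means of 431 ± 103, 638 ± 128, and 612 ± 129, and its estimate of 0.58 ± 0.20 (adjusted p = 0.0716) for α4β7− CD22− against α4β7+ cells was not called. Without α4β7− CD22− replicate 2 that estimate was 0.72 and was called at an adjusted p of 0.0361 by limma.

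The 3 KLF genes were not called either. Klf2, a factor linked to quiescence, had means of 763 ± 86.2, 603 ± 65.1, and 628 ± 86.9 and differences of −0.34 ± 0.12 (adjusted p = 0.0719) and −0.28 ± 0.12 (adjusted p = 0.112) against α4β7+ cells. Klf6, an injury-responsive factor, had means of 3916 ± 291, 4498 ± 418, and 5043 ± 424, and every CD22+ library lay above every α4β7+ library, with a difference of 0.36 ± 0.08 (adjusted p = 0.00581) that stayed under 1.5-fold. Klf4 had between 40.7 to 126 normalized counts in a library, and 8.0% of its longest transcript matched another gene at 90% identity or more.

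Of the 3 ZFP36 genes, which encode proteins that bind AU-rich elements of short-lived mRNAs and promote their decay, 2 were lower in α4β7− CD22− and in CD22+ than in α4β7+ cells. Zfp36 (chr7:28376784-28380253, minus strand), which encodes tristetraprolin, had 34888, 28543, 29059, and 27592 normalized counts in the α4β7+ libraries, 14840.3, 14569, 14842, and 12577 in the α4β7− CD22− libraries, and 9861, 11558, 9119, and 9229 in the CD22+ libraries. No library of a subset overlapped another subset, and Zfp36 was 2.11-fold lower in α4β7− CD22− cells, a log2 fold change of −1.08 ± 0.09 (adjusted p = 2.23e-06), and 3.02-fold lower in CD22+ cells, −1.59 ± 0.09 (adjusted p = 1.55e-08). Zfp36l2, a paralog that binds the same elements, had 6094, 6043, 5575, and 6042 normalized counts in the α4β7+ libraries, 3298, 3410.4, 4511, and 3429 in the α4β7− CD22− libraries, and 2976, 3284, 3998, and 3165 in the CD22+ libraries. It was lower than in α4β7+ cells at −0.71 ± 0.11 (adjusted p = 0.00032) and −0.83 ± 0.11 (adjusted p = 3.93e-05) on the log2 scale, and the α4β7− CD22− and CD22+ libraries overlapped. Zfp36l1 had means of 218 ± 44.6, 198 ± 56.6, and 228 ± 40.7 and was not called, with an interval of −0.37 to 0.51 for CD22+ against α4β7+ cells. Because 29.9% of its longest transcript matches a pseudogene, its counts are uncertain, and 8.96% of that of Zfp36 also matches other genes, 431 in all.

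The 4 growth arrest genes were not called at the fold threshold. Btg2, a cofactor of the mRNA deadenylase that limits proliferation, had 34787, 30993, 31553, and 25580.3 normalized counts in the α4β7+ libraries, 34220.2, 30854, 33454, and 29601 in the α4β7− CD22− libraries, and 24290.5, 21938, 21132, and 21377 in the CD22+ libraries. The CD22+ libraries lay below all others, with differences of −0.46 ± 0.09 (adjusted p = 0.00136) from α4β7+ and −0.53 ± 0.09 (adjusted p = 0.00747) from α4β7− CD22− cells, whereas the difference between the latter was 0.07. Btg1, its close relative, had means of 20727 ± 2387, 15561 ± 1057, and 16537 ± 386 and differed by −0.41 ± 0.08 (adjusted p = 0.00261) and −0.32 ± 0.08 (adjusted p = 0.00923) against α4β7+ cells, below 1.5-fold, and 8.98% of its longest transcript matches other genes. Gadd45a and Gadd45b, stress sensors that bind upstream kinases of p38 and JNK, had means of 6916 ± 807, 7833 ± 779, and 6427 ± 714 and of 810.3 ± 112, 708 ± 27.9, and 725 ± 111, and neither passed the adjusted p threshold.

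Among the other transcription factors, Myc had the largest fold change of all members. Myc, a driver of growth and ribosome synthesis (chr15:61985391-61990374, plus strand), had 647, 644, 499, and 807 normalized counts in the α4β7+ libraries, 46.4, 54.5, 36.6, and 32.9 in the α4β7− CD22− libraries, and 30.9, 71.6, 27.4, and 39.1 in the CD22+ libraries. The α4β7+ libraries were all far above the rest, and the log2 fold changes were −3.90 ± 0.28 (adjusted p = 4.14e-07) in α4β7− CD22− and −3.99 ± 0.28 (adjusted p = 9.75e-08) in CD22+ cells, 15.9-fold in the latter. The latter subsets overlapped, and their difference was −0.09 ± 0.28 (adjusted p = 0.962). Maff and Mafk, small Maf proteins that dimerize with larger bZIP factors, had means of 776 ± 55.8, 768 ± 69.049, and 633 ± 45.3 and of 1461 ± 156, 1617 ± 183, and 1675 ± 285. Maff was lower in CD22+ than in α4β7+ cells at −0.29 ± 0.09 (adjusted p = 0.0359), below 1.5-fold, and Mafk and Cebpd, a factor of acute inflammation with means of 184 ± 24.1, 189.8 ± 28.037, and 194 ± 24.6, did not pass the adjusted p threshold in any comparison.

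Of the 2 RGS members, which accelerate GTP hydrolysis by G proteins and so shorten chemokine receptor signals, Rgs1 was higher in α4β7− CD22− and CD22+ than in α4β7+ cells. Rgs1 (chr1:144242296-144249242, minus strand), a regulator of leukocyte retention in the gut, had 27017, 25459, 26385, and 20209.7 normalized counts in the α4β7+ libraries, 68699.7, 67843, 73891, and 84725 in the α4β7− CD22− libraries, and 72667, 56977, 72746, and 88043 in the CD22+ libraries. Every library of these subsets lay above every α4β7+ library, and Rgs1 was higher by 1.58 ± 0.12 on the log2 scale (adjusted p = 8.53e-07) in α4β7− CD22− and by 1.54 ± 0.12 on the log2 scale (adjusted p = 4.22e-07) in CD22+ cells, close to 3-fold in each. Between the latter subsets it differed by −0.03 ± 0.12 (adjusted p = 0.968). Rgs2 had means of 8568 ± 1009, 10048 ± 852, and 10134 ± 1066, and its differences of 0.23 ± 0.10 (adjusted p = 0.127) and 0.24 ± 0.10 (adjusted p = 0.0898) were not called.

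The fewest members were called between the α4β7− CD22− and CD22+ subsets. In CD22+ against α4β7− CD22− cells the 3 called members were Fosl1, Dusp5 (−0.69 ± 0.13 (adjusted p = 0.0171)), and Jun (−0.62 ± 0.13 (adjusted p = 0.0361)), and the Jun libraries overlapped. A further 5 members passed the adjusted p threshold below 1.5-fold, all lower in CD22+ cells, namely Junb (−0.41 ± 0.08 (adjusted p = 0.0223)), Ier5 (−0.39 ± 0.08 (adjusted p = 0.0303)), Dusp1 (−0.41 ± 0.09 (adjusted p = 0.044)), Zfp36 (−0.52 ± 0.09 (adjusted p = 0.0133)), and Btg2. Of 15249 tested genes, 125 were lower and 39 higher in this comparison by the adjusted p alone, beside 60 and 32 with the fold threshold. The Jun and Dusp5 calls were the least stable, as Jun was called in 11 of 22 alternative analyses and Dusp5 in 18. Without CD22+ replicate 3, which had 7 of its 38 members above the subset mean, or without α4β7− CD22− replicate 1 or 2, only 1 member was called in this comparison, Fosl1. Of the 38 estimates, 26 were below 0, beside 50.3% of all tested genes.

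**Figure D3:**
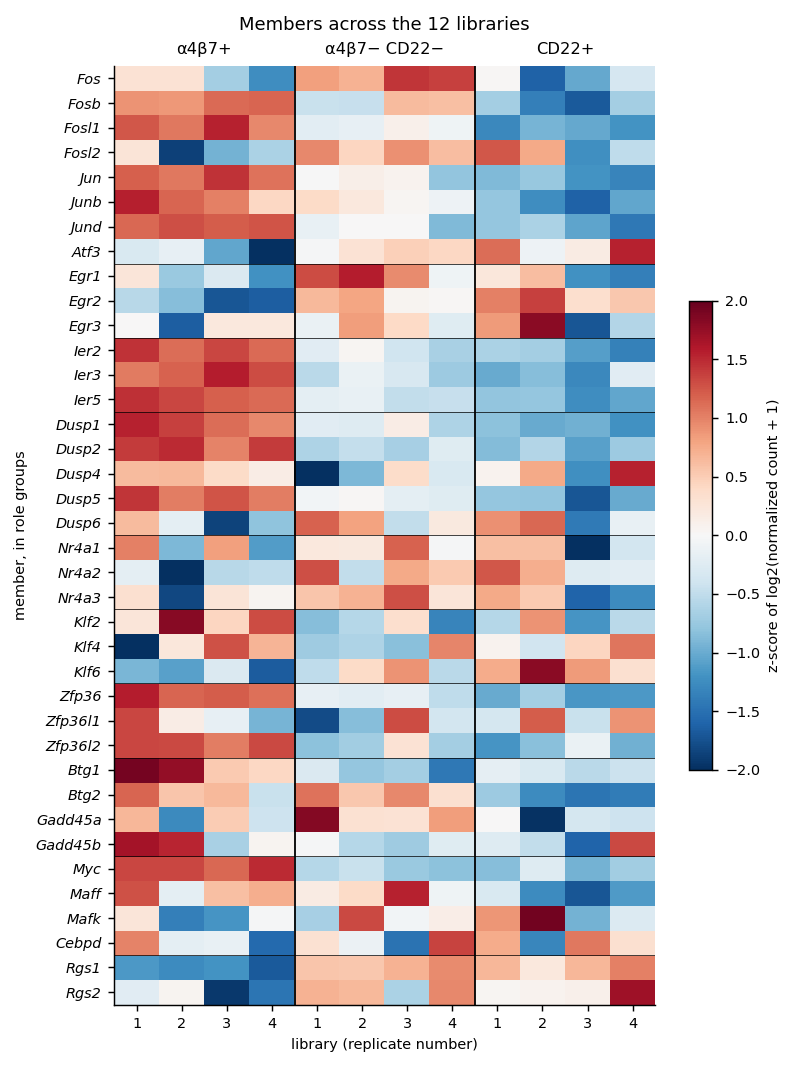
Z-scores of log2(normalized count + 1) of the 38 members (rows, in role groups) in the 12 libraries (columns, 4 per subset). The IER genes, Dusp1, Dusp2, Dusp5, Jun, Jund, Zfp36, and Myc are high in the α4β7+ libraries, and Rgs1 and Egr2 are low there. The NR4A, Klf2, and Klf4 rows vary within subsets, and Klf6 is higher in the CD22+ than in the α4β7+ libraries.

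To compare levels between genes, normalized counts were divided by the length of the longest annotated transcript in kilobases. On this scale the members ranged from 11.6 ± 1.51 for Dusp4 to 22732 ± 2328 for Junb in the α4β7+ subset (SD, n = 4). Junb ranked 19 and Fos 37 among 15242 tested genes with a length in α4β7+ cells, and Dusp1, Btg2, and Zfp36 ranked 48, 60, and 66. In CD22+ cells the highest members were Fos, at 14203 ± 1600.4 and rank 22, Junb, at 14023 ± 1092 and rank 23, and Rgs1, at 12427 ± 2171 and rank 28. The order of Fos and Junb in that subset is within their spread. Rgs1 moved up from rank 197 in α4β7+ cells, and Zfp36 moved down to rank 168. Dusp2, Myc, Ier3, and Fosl1 went from levels of 499 ± 109, 278 ± 53.7, 136 ± 33.3, and 105 ± 30.6 per kilobase in α4β7+ cells to 47.2 ± 10.6, 18.1 ± 8.63, 14.9 ± 8.08, and 8.07 ± 1.55 in CD22+ cells. The lowest rank of Egr1 in any subset was 116, in α4β7+ cells, and that of Dusp1 was 94, in CD22+ cells.

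**Figure D4:**
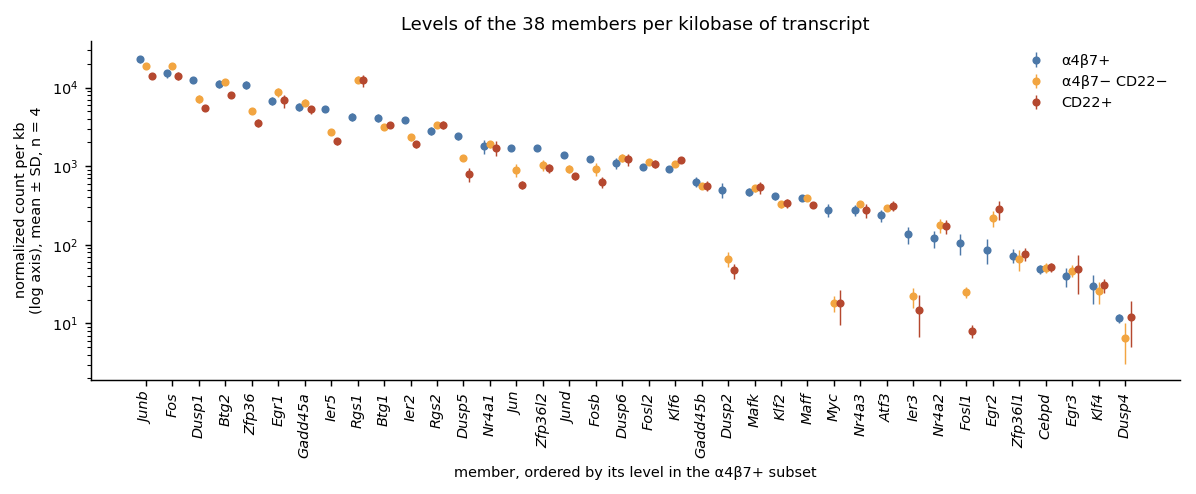
Normalized counts per kilobase of longest transcript (log axis) of the 38 members, mean ± SD of 4 libraries per subset, ordered by the α4β7+ level. Levels span more than 3 orders of magnitude, and Dusp2, Myc, Ier3, and Fosl1 stand out as high in α4β7+ and low in the other subsets.

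Together the members took 1.83 to 2.15% of the normalized counts of an α4β7+ library, 2.13 to 2.28% of an α4β7− CD22− library, and 1.87 to 2.05% of a CD22+ library. Without Rgs1 the shares were 1.70 to 1.99%, 1.65 to 1.81%, and 1.37 to 1.55%.

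Over the deviations of the 12 libraries from their subset means, the mean correlation between members was 0.165, beside 0.001 between all tested genes. It was 0.715 among the NR4A genes, 0.600 among the EGR genes, and 0.265 among the DUSP genes. It was 0.244 among the IER genes, 0.302 among the ZFP36 genes, 0.341 among the growth arrest genes, 0.472 between the RGS genes, and 0.147 among the AP-1 and ATF genes. Among the KLF genes it was −0.0032 and among the other factors −0.033. Among 30 other primary response genes, described below and outside the members, it was 0.203. These are descriptions over 12 libraries that share their scaling, and no test was made. In α4β7+ replicate 1, 33 of 38 members were above their subset mean, and in CD22+ replicate 3, 7 were.

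**Figure D5:**
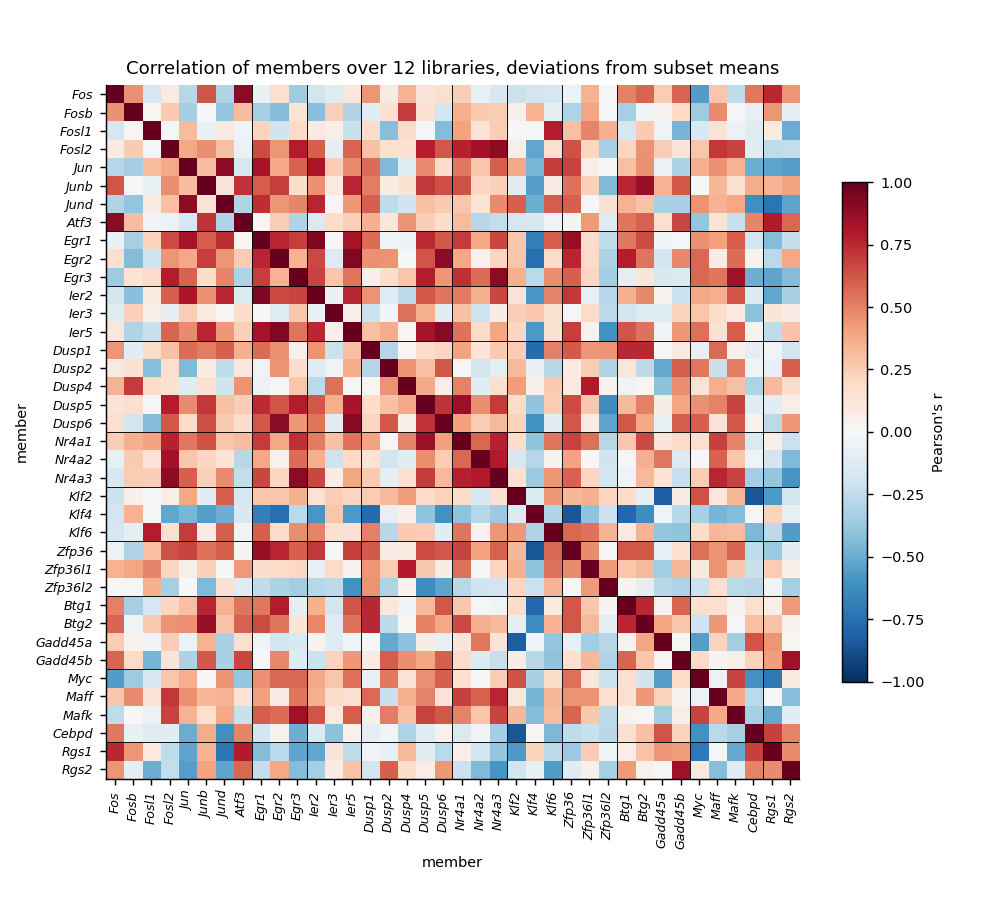
Pearson's r between each pair of the 38 members over 12 libraries, computed on deviations of log2(normalized count + 1) from the subset means, with lines between role groups. The NR4A and EGR blocks are positive throughout, and Klf4 is negative with 32 of the other 37 members.

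RNA levels of 39 kinases, adaptors, and transcription factors of the upstream pathways were examined, and the activity of these proteins was not measured. In α4β7− CD22− against α4β7+ cells 1 of the 39 was higher and 2 were lower, beside 3.7% and 4.35% of all tested genes. In CD22+ against α4β7+ cells 2 were higher and 8 lower, beside 5.6% and 6.39% of all tested genes. None was called between CD22+ and α4β7− CD22− cells. Map2k6, an activator of p38, had means of 174 ± 32.9, 319 ± 39.2, and 399 ± 19.3 and was higher in CD22+ cells at 1.21 ± 0.14 (adjusted p = 2e-05). Spred2 and Spred1, inhibitors of the Ras to ERK pathway, had means of 763 ± 72.4, 499.8 ± 38.4, and 378 ± 45.8 and of 169.7 ± 68.9, 103 ± 24.9, and 84.7 ± 8.26 and were lower at −1.01 ± 0.11 (adjusted p = 1.07e-05) and −0.91 ± 0.27 (adjusted p = 0.0254). Nab2, a corepressor of EGR factors, had means of 106 ± 69.9, 114 ± 27.4, and 202 ± 30.5 and was higher at 1.11 ± 0.32 (adjusted p = 0.0235), with overlapping libraries.

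Other primary response genes, many of them NF-κB targets, were examined beside the members. Of 30, 7 were lower and 4 higher in α4β7− CD22− than in α4β7+ cells, 10 were lower and 4 higher in CD22+ cells, and 3 were lower in CD22+ than in α4β7− CD22− cells. The shares of all tested genes are those given above. Nfkbia, the inhibitor of NF-κB, had means of 16134 ± 1088, 1717 ± 111, and 466 ± 84.6 and a log2 fold change of −5.12 ± 0.11 (adjusted p = 3.47e-13) in CD22+ against α4β7+ cells. Tnfaip3, another inhibitor of that pathway, had means of 24177 ± 983, 6185 ± 825, and 4323 ± 325 and a difference of −2.49 ± 0.09 (adjusted p = 2.76e-10). Cd69, an early activation marker, and Ptgs2, the inducible cyclooxygenase, differed by −2.89 ± 0.11 (adjusted p = 2.91e-10) and −2.69 ± 0.17 (adjusted p = 4.69e-08). The median of this list was −0.45 in that comparison, beside 0.014 for all tested genes.

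Relatives from the same families that are not members, 29 tested, gave 3 higher and 2 lower in α4β7− CD22− and 3 higher and 4 lower in CD22+ than in α4β7+ cells, and 1 lower in CD22+ than in α4β7− CD22− cells. Of all tested genes, 3.7% were higher and 4.35% lower in the first of these comparisons, 5.6% and 6.39% in the second, and 0.21% and 0.393% in the third. Dusp16, a phosphatase of JNK and p38, had means of 1805 ± 412, 3781 ± 268, and 5169 ± 893 and was higher in CD22+ cells at 1.53 ± 0.16 (adjusted p = 4.98e-06), opposite to Dusp1, Dusp2, and Dusp5. Rgs18 had means of 1096 ± 169, 599 ± 71.8, and 324 ± 53.8 and fell at −1.75 ± 0.14 (adjusted p = 3.41e-07), opposite to Rgs1, whereas Rgs10 had means of 651 ± 113, 1129 ± 63.8, and 1236 ± 169 and rose at 0.93 ± 0.13 (adjusted p = 0.000101). Batf3, an AP-1 family factor, was higher as well, with means of 80.6 ± 12.3, 149 ± 22.4, and 156 ± 16.1 and a difference of 0.95 ± 0.17 (adjusted p = 0.000889).

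Induction during tissue dissociation bears on every value given here. All 3 subsets went through the same isolation, with a warm chelating step and a warm enzymatic digestion before cold sorting, and no library from cells kept undigested was analysed here. The RNA level in the tissue and the RNA made during isolation therefore cannot be told apart. Heat shock genes, which also respond to such handling, gave 1 of 12 tested lower in α4β7− CD22− than in α4β7+ cells, and 2 lower and 1 higher in CD22+ than in α4β7+ cells. Of all tested genes, 4.35% were lower in the first of these comparisons, and 6.39% were lower and 5.6% higher in the second. Dnaja1 and Hsp90ab1, chaperone genes, had means of 3587 ± 285, 2102 ± 337, and 1583 ± 90.2 and of 8493 ± 543, 6237 ± 323, and 4953 ± 605 and fell at −1.18 ± 0.11 (adjusted p = 1.33e-06) and −0.78 ± 0.08 (adjusted p = 8.16e-06), and Bag3, a cochaperone, rose at 0.59 ± 0.14 (adjusted p = 0.00824) from 219 ± 28.3, 309.6 ± 33.6, and 331 ± 49.3. Other genes of this list were low, as Hspa1a had 7.64 to 61.3 and Hspa1b 16.4 to 53.9 normalized counts in a library. Hspb1 averaged below the filter and was not tested. The part of dissociation in the differences between subsets was not tested.

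Markers of other cell types were detected, Retnlg, Jchain, and Pecam1 at levels above those of many members, and where they differed between subsets their part in the members' differences was not tested. The 9 eosinophil genes, sort markers included, summed to 72845 to 84646, 59561 to 61776, and 59479 to 63161, and 3 were lower and 1, Cd22, higher in α4β7− CD22− and 5 lower and 1 higher in CD22+ than in α4β7+ cells. Among them Ccr3, the eotaxin receptor, had means of 25121, 15187, and 10773, and Prg2 and Epx, granule protein genes, had means of 352, 185, and 109.7 and of 149.7, 129, and 68.9. In sorted bulk RNA, fewer cells of a type and less RNA per cell cannot be told apart. The 6 neutrophil markers summed to between 14364 and 22006 in α4β7+, 5868.5 and 7895 in α4β7− CD22−, and 2718 and 3522 in CD22+ libraries, in the order of the falling members, and of the 2 tested, 1 was lower in α4β7− CD22− and 2 in CD22+ than in α4β7+ cells, and 1 in CD22+ than in α4β7− CD22− cells. Nearly all of this was Retnlg, with means of 18828, 6709, and 3053. The means of S100a9, the other marker tested, were 18.987, 9.59, and 2.87. Those of Mpo were 12.7, 8.06, and 6.39, and those of Ly6g were 2.93, 0.481, and 1.45. These low means were each highest in α4β7+ cells, and Mpo and Ly6g averaged below the filter and were not tested. Elane was at 0 in every library and S100a8 at 0 in every α4β7+ and CD22+ library. The 7 epithelial markers summed to 2485 to 5754, 1537 to 3653, and 980.6 to 6216, and none of them was called. The 4 measured T cell markers summed to 669.9 to 1101, 472 to 669, and 682 to 1038, and 2 were lower in α4β7− CD22− than in α4β7+ cells. The 7 macrophage and dendritic cell markers summed to 2368 to 2679, 1929 to 2553, and 1651 to 3158, with none called. The 6 B and plasma cell markers to 3346 to 6985, 2476 to 7258, and 3248 to 7395, with none called. The 5 Paneth cell markers summed to 178 to 536, 82.2 to 367, and 196 to 1606, with 1 higher in CD22+ than in α4β7+ cells. The 5 mast cell markers summed to at most 178, and the 1 tested, Kit, was not called. The 5 stromal and endothelial markers summed to 10291 to 11775, 12391 to 13660, and 11300.5 to 12050.02, nearly all from Pecam1, which leukocytes also express, with none called.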

How the data were processed

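RNA of 12 libraries, 4 per subset, was analysed. The authors trimmed the reads with Trimmomatic 0.39, estimated counts on mm10 with kallisto 0.46.1, and normalized them with DESeq2 1.38.2, per the labels, and the deposited signal values are what DESeq2 gave. They are not whole numbers, so tests made for counts were not run, and the scaling of the authors was kept. The signal of a gene also depends on transcript length, and reads shared by similar transcripts are divided by estimation. The library kit was stranded, but whether kallisto used the strand is not given in the sources used here. The called members Jun, Junb, Jund, Fosl1, Dusp1, Dusp5, Zfp36, and Zfp36l2, and Atf3, Zfp36l1, Gadd45a, Mafk, and Cebpd, overlap a gene on the other strand, and reads of the pair may not have been separated.

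The test was limma 3.58.1, run in R 4.3.3 over genes whose average exceeded 10. It used log2(normalized count + 1), 1 model for all 12 libraries, and a trend of variance with expression, and p was Benjamini-Hochberg adjusted over all 15249 genes of a comparison. On simulated data for CD22+ against α4β7+ cells with 200 of 15249 genes changed, 57% of changes of 1 log2 unit and 83% of changes of 2 log2 units were called, with 9 false calls. The rule for the members used symbols and no measured value, but members and lists were chosen with earlier results of these data known. Values in every library are given for members called in at least 1 comparison. Up to 4 genes of each other list are named, those called with the largest fold change and a mean of at least 100. The low heat shock genes Hspa1a, Hspa1b, and Hspb1 are named besides these. Positions and lengths come from GENCODE vM21 (GRCm38), shared sequence from BLAST 2.17.0 at 90% identity, and promoters from RefSeq. Python 3.11.15, pandas 2.3.3, and matplotlib 3.10.9 were used.

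Replicate numbers 1 to 4 occur in each subset. Deviations from the subset means correlated at 0.135, 0.161, 0.177, and 0.203 between CD22+ and α4β7− CD22− libraries of the same number. Whether same-numbered libraries share mice is not given. The main model therefore did not pair libraries, and a block for the replicate number was an alternative. The study describes each library as a biological replicate from 2 pooled mice, and p-values measure the unpaired spread between libraries within subsets. Alternatives were pseudocounts of 0.1 and 10, quantile normalization, scaling to the 75th percentile, no filter and a higher filter, at 50, no variance trend, the adjusted p alone, only the subsets compared, the replicate block, and each library left out.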

Additional observations from a re-analysis of the deposited data

Results flagged for a closer look

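A library was singled out when its gap to the nearest other library of its subset, divided by the range of the subset, exceeded Dixon's 95% critical value for 4 samples. Gaps and ranges were taken on log2(normalized count + 1), whereas the values below are normalized counts. Of 114 groups of 4 libraries (38 members in 3 subsets), 9 met this, where chance gives about 1 in 20, or 5.7. The lowest α4β7− CD22− value of Jun was 2073.07 normalized counts in replicate 4, next to 3029 in the nearest library, and that of Zfp36 was 12577.1 in the same replicate, next to 14569. In that replicate Klf4 was the highest, at 114.254. The α4β7+ replicate 2 had the lowest value of Egr3 (94.8866), of Nr4a2 (279.918), and of Nr4a3 (1196.24) in its subset. Zfp36l2 was lowest in α4β7+ replicate 3, at 5574.8, and highest in α4β7− CD22− replicate 3, at 4510.79. Rgs2 was highest in CD22+ replicate 4, at 11732.8, next to 9635 in the nearest library.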

How the results depend on the processing

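The 14 members called for α4β7− CD22− and the 16 for CD22+ against α4β7+ cells stayed within 1.5 times of these numbers under every alternative run. In CD22+ against α4β7− CD22− cells the 3 called members became 1 without the variance trend and 8 by the adjusted p alone, and ranged from 1 to 4 when each library was left out. The replicate block left 3 members called there, and it changed no member's call in any comparison. Same-numbered libraries correlated at 0.043, 0.118, 0.137, and 0.050 between α4β7− CD22− and α4β7+ cells. Between CD22+ and α4β7+ cells they correlated at 0.182, 0.067, −0.059, and −0.059. Whether same-numbered libraries share mice or a batch cannot be told from these values. Of the 33 calls, 29 held under all 22 alternatives, and the exceptions were Jun (highest adjusted p 0.158) and Dusp5 (0.0992) in CD22+ against α4β7− CD22− cells, Junb under quantile normalization, and Jund without α4β7− CD22− replicate 4. Zfp36 was called in CD22+ against α4β7− CD22− cells without CD22+ replicate 2, at −0.59. No called value changed sign. Over all tested genes the adjusted p alone gave 2265, 3223, and 164 calls in place of 1228, 1829, and 92, and limma without the trend gave 54 in the last comparison. With a filter at 50, Dusp4 was not tested. The cause of these changes was not tested. The standard errors were largest for Dusp4 and Ier3, members with low values.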
